A study of Rattus norvegicus with 4 samples.

Results

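The genes described here are 29 genes of B cells and plasma cells, chosen as a module of antigen receptor, signalling, transcription factor, surface and secretory genes and read on 4 rat expression arrays. Of the 29 genes, 25 had a probe under their own name, Pax5 and Bach2 were found through the RefSeq accession of their probe, and Igj, the immunoglobulin joining chain, through the description of its probe. Ighm was not analysed here, since no probe carried its name, and whether a probe under another description reads it was not tested. The Vpreb1 probe was not well above background on any of the 4 arrays. The other 27 genes were well above background on all 4 arrays and were tested among 12858 genes.

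The study compared spleen cells of male WKAH rats aged 8 to 12 weeks, taken 24 h after an injection of liposomes (2 arrays) or of saline (2 arrays). Liposomes are small lipid vesicles, and the sources used here do not give their composition or dose. Cells carrying MHC class II were first removed with the antibody OX-6, and cells carrying CD11b/c, an integrin of myeloid cells, were then kept with the antibody OX-42, and the series title speaks of splenic macrophages. Titles end in exp1 or exp2 in both groups without saying what was shared under a number, and nothing says that the arrays came from separate rats, so each p-value reflects the spread of these samples alone, and this spread may be technical.

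B cells recognise antigen through a membrane immunoglobulin paired with the signalling chains CD79A and CD79B, and pass the signal to kinases, adaptors and a phospholipase. Their identity rests on factors such as EBF1 and PAX5, and when they become antibody-secreting plasma cells, PRDM1 silences much of this programme. The spleen holds many B cells in its follicles and marginal zone, and mature B cells carry MHC class II, the antigen that the first separation step was directed against.

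Of the 42877 non-control spots, 61.3% to 66.3% per array were well above background. Intensities are in arbitrary units after scaling each array to a common 75th percentile, and for each group the value of number 1 is given before that of number 2. The log2 fold change is the liposome mean minus the saline mean, given with its standard error (SE, limma, n = 2 arrays per group), and adjusted p-values are limma's with Benjamini-Hochberg adjustment over all 12858 genes. By this test 524 genes (4.08%) were called lower and 621 genes (4.83%) higher on the liposome arrays at an adjusted p under 0.05.

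Of the 27 genes tested, 24 had a lower mean on the liposome arrays and 3 a higher one, while 53.9% of all genes had a lower mean. The differences were under 2-fold in all but Cr2. Cd37 fell, 0 rose, and 26 did not pass the test, so that 1 of 27 stood against the 4.08% called lower among all genes. With normexp background correction 4 of the 27 (Blk, Cd37, Igj and Mzb1) were called lower, against 6.44% of all genes. The median log2 fold change of the 27 genes was -0.54, against -0.04 over all genes tested. For 14 of them the unadjusted limma p was under 0.05 with a lower liposome mean, which held for 16.6% of all genes. With a higher liposome mean it was under 0.05 for 0 of the 27, against 2053 of the 12858 genes. On both liposome arrays 22 of the 27 lay below both saline arrays, as 35.1% of all genes did, and Cd38 and Prdm1 lay above both, as 30.4% of all genes did. In a bulk measurement, fewer B cells in the fraction, less RNA per B cell and differences in other expressing cells cannot be told apart. Without liposome 2 the median log2 fold change of the 27 genes was -0.33, and without liposome 1 it was -0.65. Without saline 1 it was -0.44, and without saline 2 it was -0.56.

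**Figure D1:**
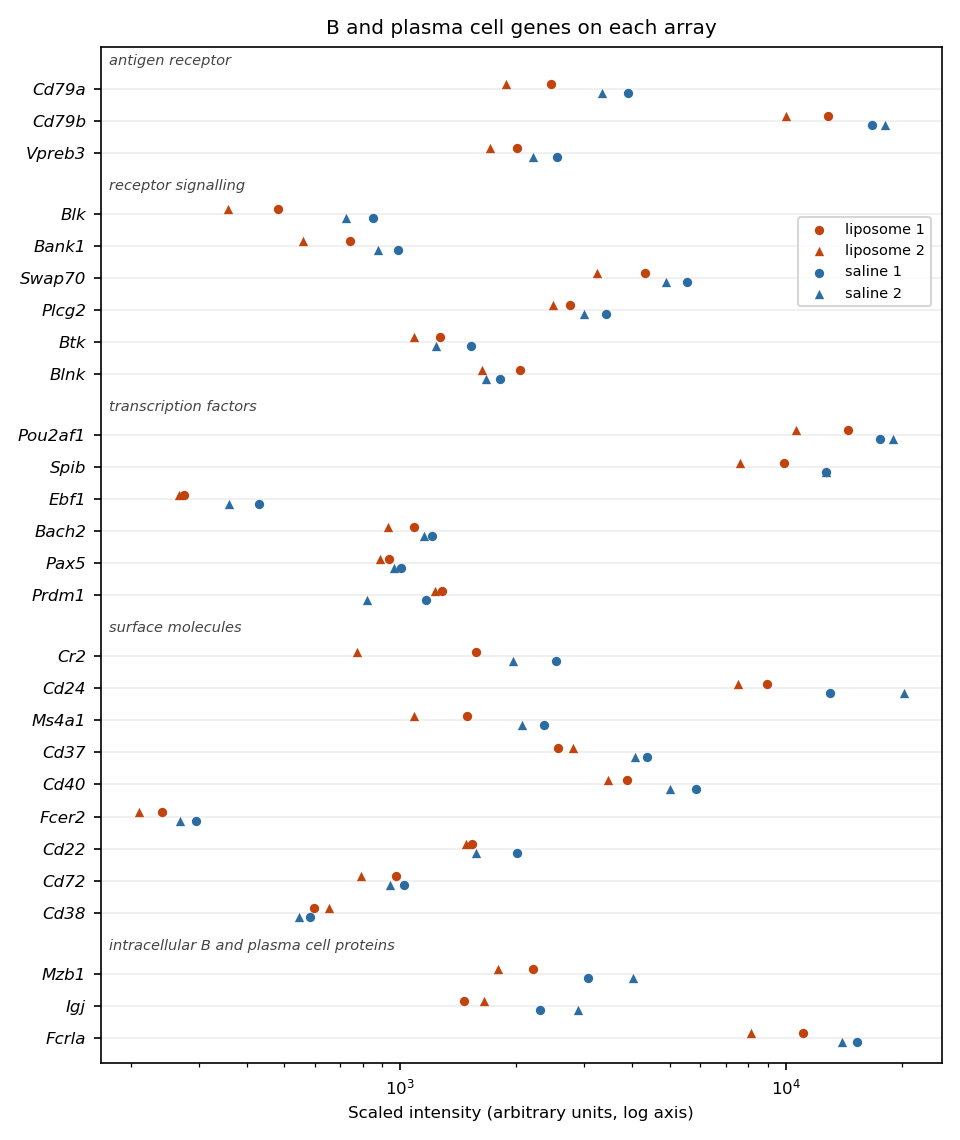
Scaled intensity (arbitrary units, log axis) of the 27 tested B and plasma cell genes on each array, by role. Liposome arrays are orange and saline arrays blue, number 1 a circle and number 2 a triangle. For 22 genes both orange points lie to the left of both blue ones.

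Among the parts of the antigen receptor, Cd79a and Cd79b encode the signalling chains that pair with membrane immunoglobulin, and Vpreb3 encodes a small protein that binds immunoglobulin chains in maturing B cells. Their probes are shown because the chains carry the receptor's activation motif, and the capitals mark the 12-base window in which both probes differ least (10 of 12 bases identical). The Cd79a probe lies at chr1:80193363-80193422 on the plus strand and the Cd79b probe at chr10:95703614-95703673 on the minus strand of the rat assembly rn4, as the array files give them.
Cd79a probe: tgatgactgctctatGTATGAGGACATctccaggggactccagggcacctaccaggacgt
Cd79b probe: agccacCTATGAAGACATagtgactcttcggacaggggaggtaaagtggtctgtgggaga
Cd79a had intensities of 2468 and 1888 on the liposome arrays, against 3896 and 3339 on the saline arrays. Both liposome arrays were low and both saline arrays high, with the lowest value on liposome 2, and the log2 fold change was -0.74 ± 0.18 (SE, limma adjusted p = 0.076). Cd79b had 12895 and 10052 on the liposome arrays, against 16754 and 18119 on the saline arrays. Its groups did not overlap either, and its log2 fold change was -0.61 ± 0.16 (limma adjusted p = 0.085). Vpreb3 had 2008 and 1712 on the liposome arrays, against 2553 and 2208 on the saline arrays. The gap between the groups was narrower here, and the log2 fold change of -0.36 ± 0.14 did not pass the test (limma adjusted p = 0.172).

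The kinase, adaptor and phospholipase genes downstream of the receptor ranged from a log2 fold change of -0.91 for Blk to 0.07 for Blnk, with 5 of 6 lower and a median of -0.38. Blk, a Src family kinase found mainly in B cells, had 482.2 and 358.8 on the liposome arrays, against 849.1 and 722.5 on the saline arrays. Both saline arrays stood well above both liposome arrays, and the log2 fold change of -0.91 ± 0.19 had a limma adjusted p of 0.0611. Bank1, a B cell scaffold protein that binds Lyn and the IP3 receptor, had 741.7 and 561.3 on the liposome arrays, against 985.7 and 877.1 on the saline arrays. Its groups did not overlap, and its log2 fold change was -0.53 ± 0.18 (limma adjusted p = 0.129). Swap70, a protein of activated B cells that also acts on the actin skeleton of other cells, had 4320 and 3251 on the liposome arrays, against 5565 and 4888 on the saline arrays. Liposome 2 was again the lowest, and the log2 fold change was -0.48 ± 0.18 (limma adjusted p = 0.159).

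Plcg2, Btk and Blnk form one step of this cascade. Plcg2, the phospholipase that produces IP3, had 2765 and 2494 on the liposome arrays, against 3428 and 3006 on the saline arrays, a log2 fold change of -0.29 ± 0.12 (limma adjusted p = 0.193). Btk, the Tec family kinase that activates it, had 1268 and 1088 on the liposome arrays, against 1531 and 1236 on the saline arrays. For Btk the groups overlapped, since liposome 1 was above saline 2 (log2 fold change -0.23 ± 0.16, limma adjusted p = 0.376). Blnk, the adaptor that brings BTK and PLCG2 together, had 2043 and 1635 on the liposome arrays, against 1820 and 1668 on the saline arrays. Here the saline values lay between the liposome values, and the log2 fold change was 0.07 ± 0.15 (limma adjusted p = 0.776).

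**Figure D2:**
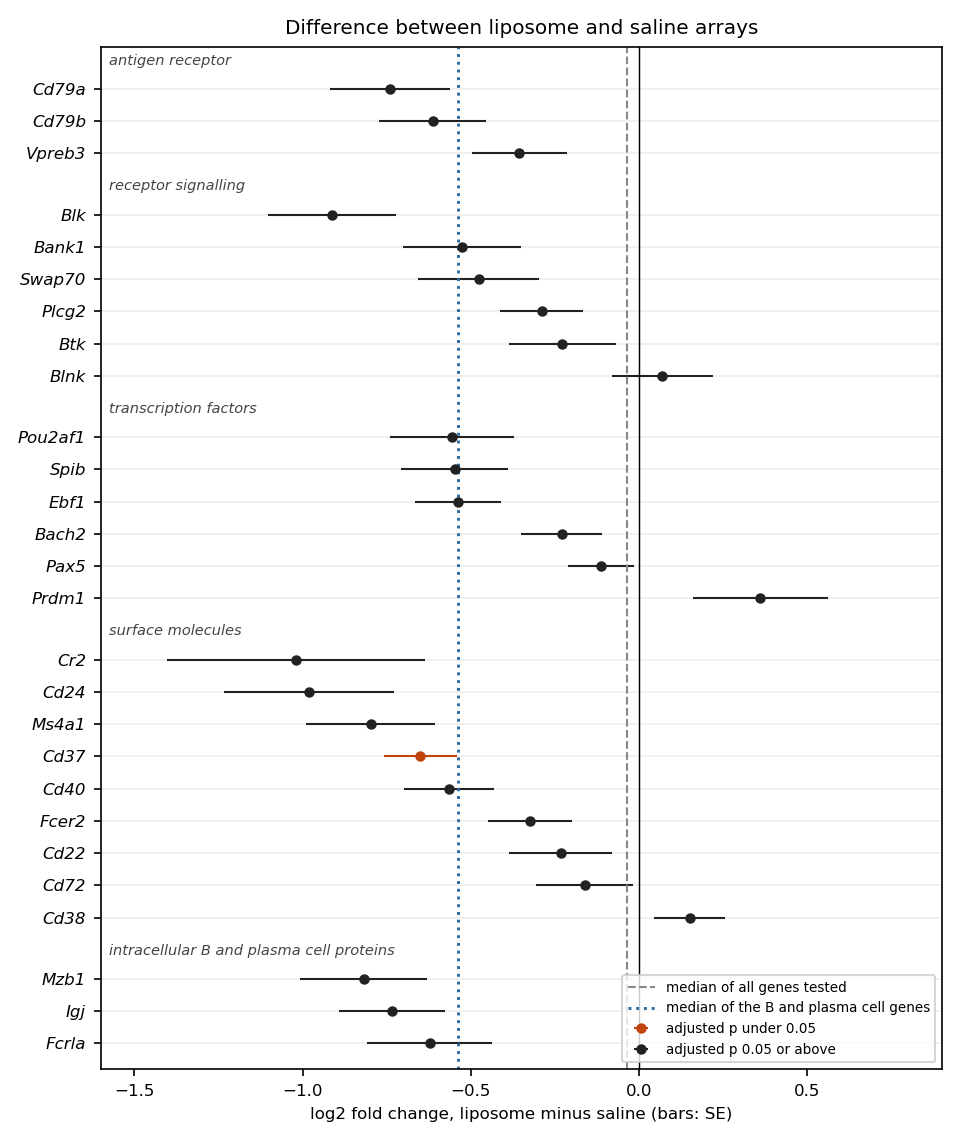
Log2 fold change, liposome minus saline, of each tested B and plasma cell gene with its SE as a bar, by role (x axis in log2 units). Cd37, in orange, passed the test, the dotted line is the median of these genes (-0.54) and the dashed line the median of all genes tested (-0.04).

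The transcription factor genes differed among themselves. Pou2af1, a coactivator of the octamer-binding factors OCT1 and OCT2, had 14549 and 10627 on the liposome arrays, against 17627 and 18980 on the saline arrays. Spib, an ETS family factor of B cells and plasmacytoid dendritic cells, had 9913 and 7625 on the liposome arrays, against 12720 and 12698 on the saline arrays. Ebf1, which opens the B cell programme together with E2A, had 275.3 and 266.6 on the liposome arrays, against 429.7 and 359.8 on the saline arrays. In all 3 both liposome arrays were low, and their log2 fold changes of -0.56 ± 0.18, -0.55 ± 0.16 and -0.54 ± 0.13 did not pass the test (limma adjusted p = 0.128, 0.104 and 0.0749). Pax5, which keeps B cells committed, had 934.4 and 886.6 on the liposome arrays, against 1008 and 961.8 on the saline arrays, a log2 fold change of -0.11 ± 0.10 (limma adjusted p = 0.466). Bach2, a repressor that delays plasma cell differentiation, had 1085 and 932.0 on the liposome arrays, against 1207 and 1152 on the saline arrays, a log2 fold change of -0.23 ± 0.12 (limma adjusted p = 0.264). In both, the liposome arrays lay just below the saline arrays.

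Prdm1 encodes the repressor BLIMP-1 of plasma cells, which T cells and myeloid cells also make. It had 1283 and 1231 on the liposome arrays, against 1170 and 818.2 on the saline arrays. The liposome arrays were close together and above both saline arrays, and saline 2 was the lowest, and the log2 fold change of 0.36 ± 0.20 did not pass the test (limma adjusted p = 0.284). Without saline 2 the log2 fold change of Prdm1 was 0.10, and without saline 1 it was 0.62. Its 2 probes gave 0.36 and 0.37. The 3 probes of Pou2af1 ranged from -0.56 to -0.44, the 2 of Cd40 from -0.56 to -0.53 and the 2 of Fcrla from -0.66 to -0.62, so that the probes of each of these 4 genes had the same direction.

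Promoters were searched for 3 motifs, those of the octamer-binding factors, E2A and EBF1. RefSeq promoters (GRCr8, 250 bases before to 50 after the start) were found for 19 of the 29 genes, and the motifs were sought on both strands. The octamer ATGCAAAT (ATTTGCAT on the other strand), bound by OCT1 and OCT2 with POU2AF1, occurred in 2 of the 19, Vpreb3 and Blnk, and in 1.78% of 33469 promoters. The E-box CAGGTG, a letter form that E2A binds, sought together with its complement, occurred in 8 of the 19 (Cd79a, Cr2, Fcrla, Cd24, Plcg2, Prdm1, Swap70 and Vpreb1) and in 18.8% of all promoters. The core CCCNNGGG of the EBF1 motif, which reads alike on both strands, occurred in Spib and Bank1 and in 12.4% of all promoters, with overlapping matches in Spib. The stretches below, printed with the motif in capitals, lie upstream of the start at chr1:89621265-89621350 (plus strand, Cd79a), chr20:12718235-12718322 (minus strand, Vpreb3) and chr1:249770675-249770762 (minus strand, Blnk).
Cd79a upstream, E-box: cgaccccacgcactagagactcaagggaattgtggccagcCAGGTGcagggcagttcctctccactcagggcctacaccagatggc
Vpreb3 upstream, octamer: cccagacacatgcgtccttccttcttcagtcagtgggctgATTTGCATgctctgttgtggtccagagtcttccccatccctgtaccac
Blnk upstream, octamer: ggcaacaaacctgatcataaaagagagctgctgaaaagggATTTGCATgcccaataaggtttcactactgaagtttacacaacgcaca
The first base of the motif lies at position -155 from the start in Cd79a, -56 in Vpreb3 and -189 in Blnk. A match describes the letters only. Of the genes holding the octamer, Vpreb3 had a log2 fold change of -0.36 and Blnk of 0.07, and neither passed the test.

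Surface molecules held both the gene that passed the test and the largest differences. Cd37, a tetraspanin of B cells that other leukocytes also carry, had 2564 and 2815 on the liposome arrays, against 4368 and 4068 on the saline arrays. The arrays of each group lay close together and far from the other group, and Cd37 fell 1.57-fold (log2 fold change -0.65 ± 0.11, limma adjusted p = 0.0443, probe at chr1:95711715-95711774 on rn4). The call was lost without liposome 1, liposome 2, saline 1 or saline 2 (limma adjusted p = 0.262, 0.202, 0.0894 and 0.0708) and without the filter on dim probes (0.277), while the log2 fold change stayed between -0.72 and -0.57 under the alternatives run.

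Cr2, the complement receptor CD21 of B cells and follicular dendritic cells, had 1571 and 775.2 on the liposome arrays, against 2544 and 1966 on the saline arrays. The groups did not overlap, but liposome 2 minus liposome 1 was -1.02 on the log2 scale, and the log2 fold change of -1.02 ± 0.38 did not pass the test (limma adjusted p = 0.158). It was -0.51 without liposome 2 and -1.53 without liposome 1. Cd24, a small glycoprotein of developing B cells that neutrophils and red cell precursors also carry, had 8956 and 7548 on the liposome arrays, against 13005 and 20260 on the saline arrays. Here saline 2 was the highest, and the log2 fold change was -0.98 ± 0.25 (limma adjusted p = 0.0842). Ms4a1, which encodes CD20 of mature B cells, had 1490 and 1086 on the liposome arrays, against 2357 and 2075 on the saline arrays. Both saline arrays stood above both liposome arrays, with a log2 fold change of -0.80 ± 0.19 (limma adjusted p = 0.0756). Cd40, the receptor for T cell help that macrophages and dendritic cells also carry, had 3886 and 3453 on the liposome arrays, against 5853 and 5017 on the saline arrays, again without overlap (log2 fold change -0.56 ± 0.13, limma adjusted p = 0.074).

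The remaining surface genes had smaller log2 fold changes. Fcer2, the low-affinity IgE receptor CD23, had 241.2 and 210.1 on the liposome arrays, against 295.7 and 268.4 on the saline arrays (log2 fold change -0.32 ± 0.12, limma adjusted p = 0.164). Cd22, an inhibitory sialic acid binding receptor of B cells, had 1536 and 1486 on the liposome arrays, against 2008 and 1571 on the saline arrays (log2 fold change -0.23 ± 0.15, limma adjusted p = 0.35). In Fcer2 and Cd22 the groups did not overlap, although saline 2 lay close to the liposome arrays in Cd22. Cd72, an inhibitory coreceptor of B cells, had 974.8 and 791.3 on the liposome arrays, against 1023 and 942.4 on the saline arrays, with overlap (log2 fold change -0.16 ± 0.14, limma adjusted p = 0.479). Cd38, an NAD-consuming ectoenzyme of many leukocytes, had 599.7 and 652.9 on the liposome arrays, against 582.7 and 545.9 on the saline arrays. Its liposome arrays were slightly the higher (log2 fold change 0.15 ± 0.11, limma adjusted p = 0.381).

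All 3 genes of intracellular and secretory proteins lay lower without passing the test. Mzb1, a chaperone of the endoplasmic reticulum that helps assemble IgM, had 2210 and 1797 on the liposome arrays, against 3081 and 4009 on the saline arrays. Igj, the chain that joins IgM and IgA into polymers, had 1465 and 1651 on the liposome arrays, against 2308 and 2902 on the saline arrays. Both genes had their highest value on saline 2, and their log2 fold changes were -0.82 ± 0.19 and -0.73 ± 0.16 (limma adjusted p = 0.0713 and 0.0636). Fcrla, a cytoplasmic Fc receptor-like protein of B cells, had 11126 and 8152 on the liposome arrays, against 15340 and 14018 on the saline arrays. Liposome 2 was the lowest here (log2 fold change -0.62 ± 0.18, limma adjusted p = 0.107).

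Of the tested genes 15 are known chiefly from the B lineage, and 12 from macrophages or other myeloid cells too. All 15 B lineage genes lay lower on the liposome arrays, with a median log2 fold change of -0.61 and a range from -1.02 to -0.11. The groups overlapped in none of them, with the narrowest gaps in Cd22 and Pax5 (0.03 and 0.04 on the log2 scale). With median scaling the groups of Pax5 overlapped, and its log2 fold change was -0.03. Of the 12 genes shared with myeloid cells 9 lay lower, with a median of -0.26 and a range from -0.98 to 0.36, and 7 had both liposome arrays below both saline arrays, as 35.1% of all genes did. The unadjusted limma p was under 0.05 with a lower liposome mean for 11 of 15 and 3 of 12, against 16.6% of all genes. The single call, Cd37, was among the shared genes. The difference between both kinds of gene was not tested. Spib and Cr2, counted with the B lineage, are also expressed outside it. The split, like the other lists, was drawn with earlier results of these data known.

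Immunoglobulin chain genes were followed through probes whose description names a chain. Of 9 such genes 7 were tested, all 7 lay lower on the liposome arrays, 1 fell, 0 rose and 6 did not pass. Their median log2 fold change was -0.57 (unadjusted limma p under 0.05 for 6 lower and 0 higher). Among all genes 4.08% fell, and 16.6% had such an unadjusted p with a lower mean and 2053 of 12858 with a higher one. The gene that fell, ENSRNOT00000045874, is described as an Ig gamma-2B chain constant region, and its probe is shown because it is the single chain probe past the threshold. It lies at chr6:138287978-138288146 on the minus strand of rn4, and the capitals mark a run of 11 bases that occurs 2 times in it.
Ig gamma-2B chain probe: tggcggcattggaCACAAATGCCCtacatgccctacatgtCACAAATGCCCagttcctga
This probe had 3989 and 3951 on the liposome arrays, against 8407 and 7062 on the saline arrays. The liposome arrays were nearly equal and both low, and the gene fell 1.94-fold (log2 fold change -0.96 ± 0.13, limma adjusted p = 0.0309). The other genes described as gamma-2B chains, ENSRNOT00000007140 and ENSRNOT00000056843, lay at -0.52 and -0.44 on the log2 scale without passing (limma adjusted p = 0.128 and 0.105). Their probes lie at chr6:138440187-138440246 and chr6:138442519-138442578. These positions are nearer to an Ig delta chain probe (chr6:138435718-138435777) than to the probe shown. Which chain both probes read was not tested. The lambda-2 chain genes ENSRNOT00000050106 and ENSRNOT00000057971 had -0.70 and -0.80 (limma adjusted p = 0.0594 and 0.0972), and the IgG heavy chain gene LOC362795 had -0.57 (0.0905).

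The gamma-2A chain gene, ENSRNOT00000066209, behaved otherwise, with 7263 and 13358 on the liposome arrays, against 6302 and 16732 on the saline arrays. In it number 2 was high and number 1 low in both groups, the groups overlapped, and the log2 fold change was -0.06 ± 0.58 (limma adjusted p = 0.952). An Ig delta chain gene outside the wording of the rule, picked after its values were seen, had 351.7 and 304.6 on the liposome arrays, against 542.9 and 437.7 on the saline arrays. The liposome arrays were the lower (log2 fold change -0.57, limma adjusted p = 0.0945). Immunoglobulin genes have close copies in the genome, so it is uncertain which copy each probe reads. The 5 tested probes described as gamma or IgG heavy chains share no run longer than 12 bases in any of their 10 pairs. The probes for an Ig epsilon and an Ig gamma-1 chain did not pass the filter on dim probes.

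**Figure D3:**
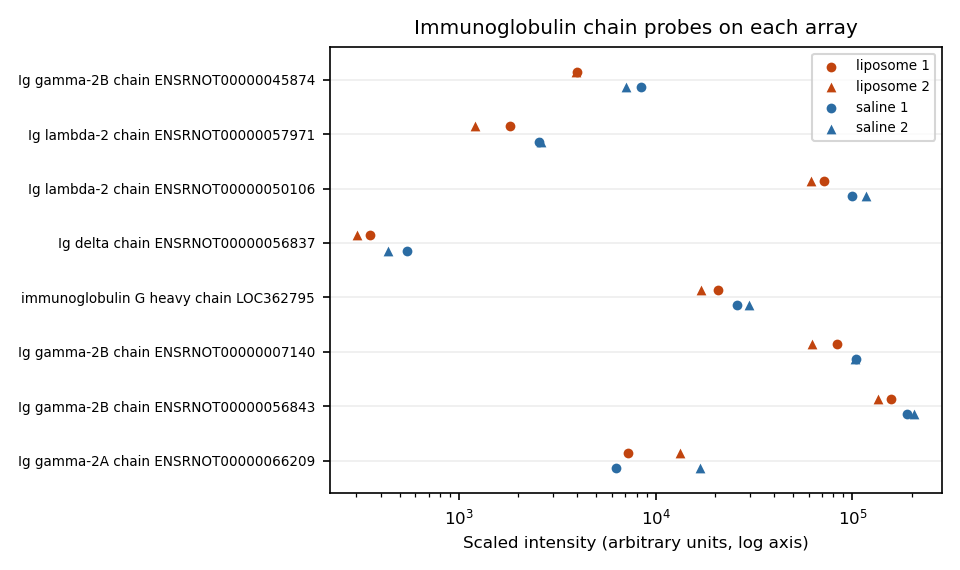
Scaled intensity (arbitrary units, log axis) of the immunoglobulin chain probes that passed the filter, with the Ig delta probe added, ordered by log2 fold change. Liposome arrays are orange and saline arrays blue, and in the gamma-2A probe at the bottom the number 2 arrays (triangles) of both groups are the high ones.

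Other genes of the B cell receptor pathway had a median nearer to that of all genes. Of 28 tested of 32 listed, 1 rose, 2 fell and 25 did not pass, while 4.83% of all genes rose and 4.08% fell. In this list 21 lay lower, and the median log2 fold change was -0.14. The unadjusted limma p was under 0.05 for 8 lower and 2 higher, against 16.6% of all genes lower and 2053 of 12858 higher. Fcgr2b, the inhibitory Fc receptor of B cells and macrophages, had 21871 and 21336 on the liposome arrays, against 13854 and 11911 on the saline arrays, and rose 1.68-fold (log2 fold change 0.75 ± 0.12, limma adjusted p = 0.0417). Lat2, an adaptor of B cells, mast cells and monocytes, had 814.2 and 837.6 on the liposome arrays, against 1190 and 1317 on the saline arrays, and fell 1.52-fold (limma adjusted p = 0.0476). Prkcb, the protein kinase C that leads from the receptor to NF-kappa B, had 9421 and 9201 on the liposome arrays, against 14172 and 13297 on the saline arrays, and fell 1.47-fold (limma adjusted p = 0.0473). In all 3 genes the 2 arrays of each group lay close together.

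Of 21 other B cell transcription factors tested of 24 listed, 3 fell, 0 rose and 18 did not pass, while 4.08% of all genes fell. In this list 20 lay lower, and the median log2 fold change was -0.41. The unadjusted limma p was under 0.05 for 12 lower and 0 higher, against 16.6% of all genes lower and 2053 of 12858 higher. Klf2, a factor of resting lymphocytes and of monocytes, had 3451 and 4305 on the liposome arrays, against 7633 and 8710 on the saline arrays, and fell 2.12-fold (limma adjusted p = 0.0361). Bcl6, the repressor of germinal centre B cells that macrophages also use, had 9081 and 8293 on the liposome arrays, against 18835 and 15953 on the saline arrays, and fell with a log2 fold change of -0.998 (limma adjusted p = 0.0308). Tcf4, the E protein E2-2 of B cells and plasmacytoid dendritic cells, had 2715 and 2180 on the liposome arrays, against 4549 and 4379 on the saline arrays, and fell 1.83-fold (limma adjusted p = 0.0431). Each of these genes is also expressed outside the B lineage. Without liposome 1 or without liposome 2 limma called 0 genes of any list (2168 and 2393 genes at an unadjusted p under 0.05), so the calls of Fcgr2b, Lat2, Prkcb, Klf2, Bcl6, Tcf4 and ENSRNOT00000045874 were lost there too.

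Among 31 other surface molecules and survival factors tested of 39 listed, 0 rose and 0 fell, with a median log2 fold change of -0.27. The unadjusted limma p was under 0.05 for 11 lower and 1 higher, against 16.6% of all genes lower and 2053 of 12858 higher. The smallest adjusted p-values were those of Ltb, lymphotoxin beta, and Il21r, the receptor for interleukin 21, whose log2 fold changes were -0.54 and -0.51 by limma (adjusted p = 0.0591 and 0.0716). Igll1, the surrogate light chain that pairs with the Vpreb1 product, picked after its values were seen, had a log2 fold change of -0.80 (limma adjusted p = 0.0527).

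The secretory genes of plasma cells, which most cells use to fold and export proteins, had a median close to that of all genes. Of 24 tested of 27 listed, 0 rose and 0 fell, 17 lay lower and 7 higher, and the median log2 fold change was -0.09. The unadjusted limma p was under 0.05 for 5 lower and 1 higher, against 16.6% of all genes lower and 2053 of 12858 higher. Sdf2l1, a chaperone subunit of the endoplasmic reticulum, had a log2 fold change of 0.55 (limma adjusted p = 0.0551), and Ell2, an elongation factor that directs the secreted form of IgH, of -0.48 (0.0749).

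**Figure D4:**
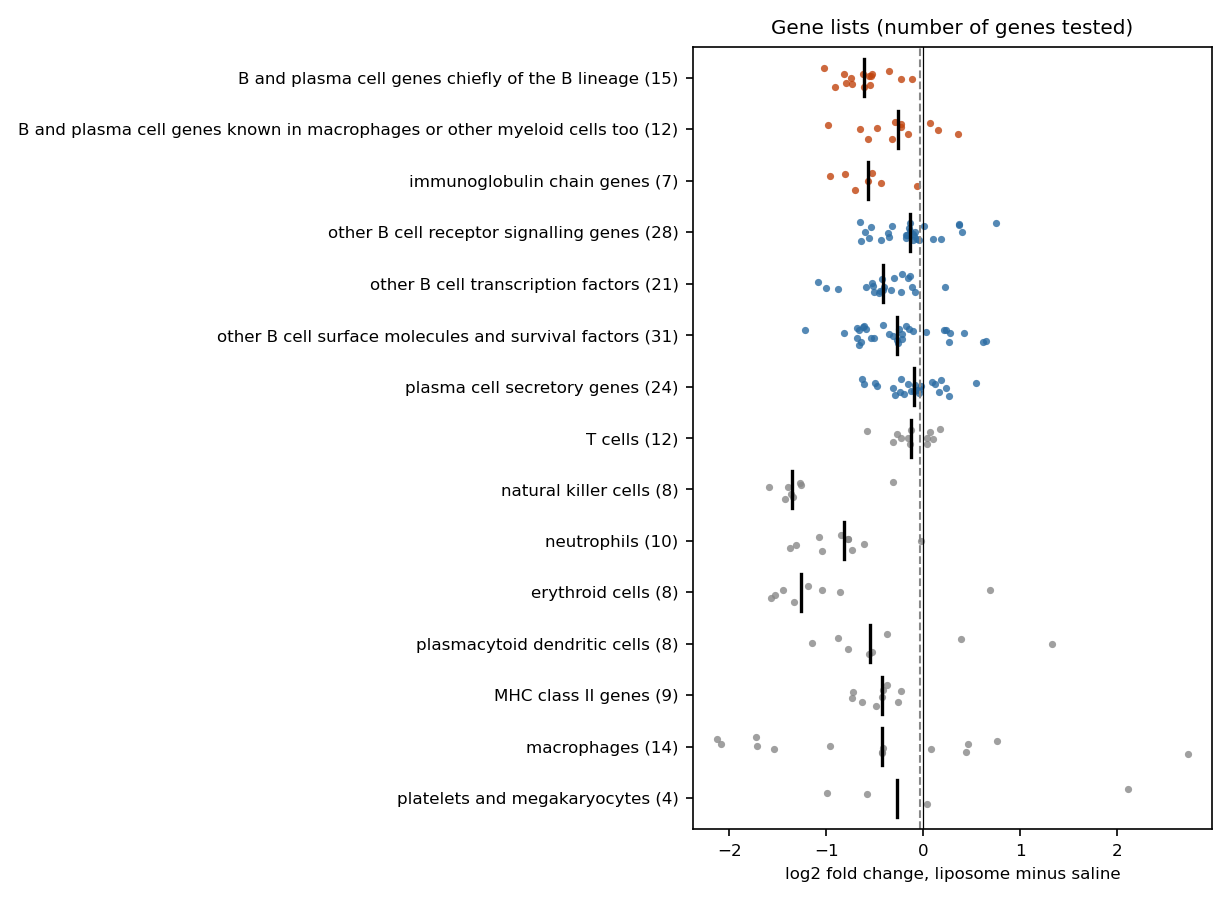
Log2 fold change, liposome minus saline, of each tested gene (points) and the median (black bars) of the B and plasma cell genes and immunoglobulin chains (orange), other B cell pathway lists (blue) and marker lists of other spleen cells (grey), with the number of genes tested. The dashed line is the median of all genes (-0.04), and the B lineage genes have a median of -0.61.

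Markers of other cells also differed between the groups. Their counts past the threshold stand beside 4.08% called lower and 4.83% called higher among all genes. The intensities of the 27 B and plasma cell genes summed to 93649 and 75026 on the liposome arrays, against 124312 and 128676 on the saline arrays. The depletion was directed against MHC class II, and the 9 tested genes of that list include Cd74 and Ciita, which are not its chains. Which of the 9 encode the antigen that OX-6 binds was not examined. They were well above background on all 4 arrays. The sums were 324764 and 324140 on the liposome arrays, against 458324 and 416214 on the saline arrays. Of these 9 genes 2 fell and 0 rose, with a median log2 fold change of -0.43. Their listed gene RT1-Ba was not well above background on any array. Of 10 neutrophil markers 6 fell and of 8 erythroid markers 5 fell, with medians of -0.81 and -1.26. The neutrophil sums were 170351 and 197447 on the liposome arrays, against 281316 and 332766 on the saline arrays, and the erythroid sums were 30827 and 29441 on the liposome arrays, against 81538 and 84076 on the saline arrays. Of 8 plasmacytoid dendritic cell markers 1 rose and 1 fell, with a median of -0.55. The marker that fell was Tcf4, already named among the B cell transcription factors, and this cell type also expresses Spib. Plasmacytoid dendritic cell sums were 26080 and 27351 on the liposome arrays, against 47090 and 33781 on the saline arrays. Of 14 macrophage markers 1 rose and 6 fell, with a median of -0.43, and their sums were 213262 and 220888 on the liposome arrays, against 218896 and 253670 on the saline arrays. Of 4 platelet markers 1 rose and 1 fell, with a median of -0.27. The part of these cells in the values of the B and plasma cell genes was not tested.

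Between the title numbers, the median of the B and plasma cell genes differed the opposite way from the medians of T cell and natural killer cell markers. The median of the 27 B and plasma cell genes was lower on number 2 than on number 1, by -0.25 on the log2 scale among the liposome arrays and by -0.14 among the saline arrays, and 20 of the 27 genes were lower on number 2 in both groups. With median scaling the saline value was -0.02. The 12 T cell markers had medians of 0.996 among the liposome arrays and 1.37 among the saline arrays in the same difference, and the 8 natural killer cell markers had 1.67 among the liposome arrays and 1.69 among the saline arrays, so that their number 2 arrays were the high ones. Over all genes the medians were -0.02 among the liposome arrays and -0.03 among the saline arrays. Number 2 was the lower for 7006 of 12858 genes among the liposome arrays and 7163 among the saline arrays. For the B and plasma cell genes these counts were 24 and 22 of 27. Among the saline arrays Cd24, Mzb1, Igj, Cd79b and Pou2af1 were higher on number 2 (0.64, 0.38, 0.33, 0.11 and 0.11). Immunoglobulin chain genes had medians of -0.22 among the liposome arrays and 0.13 among the saline arrays. In the same order, macrophage markers had -0.23 and -0.0079, and MHC class II genes 0.0054 and -0.16. T cell marker sums were 30202 and 57142 on the liposome arrays, against 28341 and 72830 on the saline arrays, and natural killer cell sums were 11613 and 35230 on the liposome arrays, against 28582 and 90447 on the saline arrays. By group the T cell and natural killer cell medians were -0.13 and -1.35, with 0 of 12 and 0 of 8 past the limma threshold (0 at an unadjusted p under 0.05 in both). Within number 1 and within number 2 all 8 natural killer cell markers were lower on the liposome array, with medians of -1.32 and -1.37. For the T cell markers 3 of 12 were lower within number 1 and 11 of 12 within number 2, with medians of 0.14 and -0.22.

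Within number 1 alone, the median of the B and plasma cell genes was -0.38 for liposome minus saline. There 24 of 27 lay lower, as did 6880 of the 12858 genes tested. Within number 2 alone the median was -0.54 and 25 of 27 lay lower, as did 6861 of the 12858. In 24 of the 27 genes the liposome array was the lower one within both numbers. Cr2 differed by -0.70 within number 1 and -1.34 within number 2, Cd24 by -0.54 and -1.42, and Cd79b by -0.38 and -0.85. Cd37 differed by -0.77 within number 1 and -0.53 within number 2, and Vpreb3 by -0.35 and -0.37. These are single pairs of arrays without a test.

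**Figure D5:**
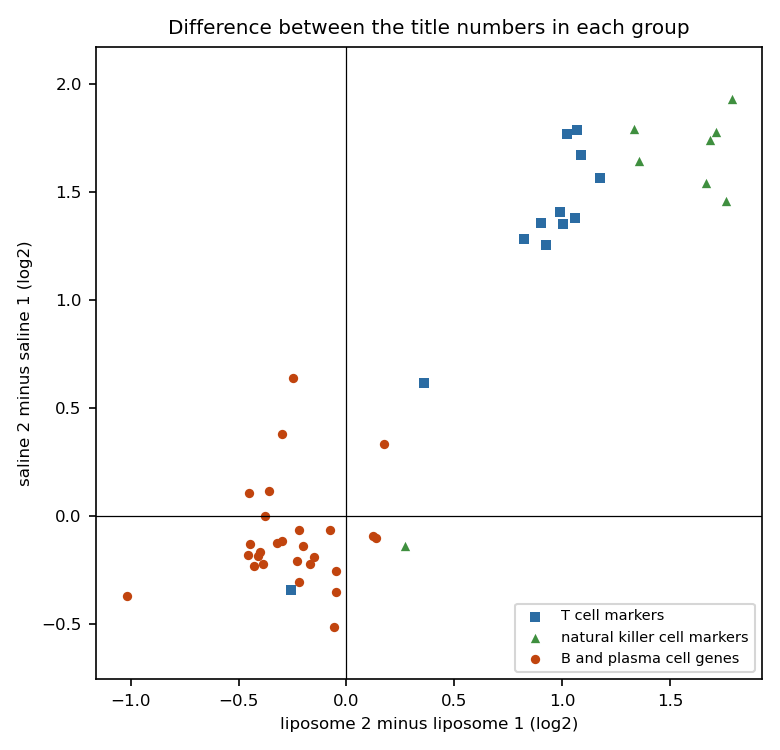
Difference between number 2 and number 1 (log2) among the liposome arrays (x axis) and the saline arrays (y axis), for each B and plasma cell gene and each T cell and natural killer cell marker. Most T cell and natural killer cell markers lie at the upper right, while 20 of 27 B and plasma cell genes lie below 0 on both axes.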

How the data were processed

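The deposited files hold linear spot intensities, read, per the submitters' processing notes, with Agilent Feature Extraction 10.7.3.1. Background had been subtracted from the processed intensity within each array, without scaling between arrays, per the file headers. All 4 arrays lay on 1 slide and in 1 scan. Control and outlier spots were left out, spots of a probe averaged, and each array's 75th percentile subtracted from the log2 of the deposited processed intensity. Probes were kept if 1 or both groups had both arrays well above background. The brightest probe stood for a gene. Across 12858 genes, limma 3.58.1 (R 4.3.3) was run with Benjamini-Hochberg adjustment and a threshold of 0.05, and the fit was tested on simulated data. With 2 arrays per group the smallest exact permutation p is 0.333, so that test was not used.

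The genes and lists were chosen with earlier results of these data known. All 29 genes are accounted for. Of each other list the genes past the threshold were named, at most 4 in each direction, or else the 2 with the smallest adjusted p. The alternatives were normexp background correction with an offset of 50 on the deposited mean and local background intensities, median and quantile scaling, other filters, the mean of a gene's probes, each array left out, and the title number as a block. Probe positions are on rn4 as deposited and promoters on GRCr8 from RefSeq. Exon or intron is not given, since no annotation of rn4 was used here.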

Additional observations from a re-analysis of the deposited data

How the results depend on the processing

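With only 2 arrays per group, the number of arrays limits the precision. In every alternative fitted over genes 24 or 25 of the 27 B and plasma cell genes, or of 28 without the filter on dim probes, lay lower on the liposome arrays, and Cd37 kept its direction. On the 4 arrays limma called 1145 genes and 1 B or plasma cell gene, Cd37. With normexp it called 1737 and 4 (Blk, Cd37, Igj and Mzb1). Without the filter on dim probes it called 0 of 21971 (3007 at an unadjusted p under 0.05) and 0. With each of 16852 probes tested on its own, an alternative chosen after seeing the data, it called 1146 probes, and Cd37 kept an adjusted p of 0.04996. With an array left out it called 0 to 548 genes and 0 B or plasma cell genes, and their median log2 fold change ran from -0.65 to -0.33. The count of 0 came without liposome 1 and without liposome 2 (2168 and 2393 at an unadjusted p under 0.05), where the single liposome array is assumed to vary like the saline arrays. Blnk, which was not called, ran from -0.0915 to 0.229 with an array left out, negative without liposome 1. With median scaling the saline difference between title numbers was -0.0241, against -0.14.

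With the title number as a replicate block limma called 1773 genes and 7 of the B and plasma cell genes (Blk, Cd37, Cd40, Cd79a, Cr2, Igj and Ms4a1), all lower, against 7.51% of all genes called lower. Across genes, number 2 minus number 1 correlated at 0.36 between the groups, but with 2 arrays per group this does not show that the numbers pair the samples.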
